A study of Mus musculus with 7 samples.

Results

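The antiproteases of the neutrophil are the inhibitors that hold its proteases in check. A total of 10 mouse genes were taken by symbol from the deposited expression table: the secreted inhibitor Slpi, the WAP domain genes Wfdc17 and Wfdc21, the stefins Stfa1, Stfa2, Stfa2l1, Stfa3 and Cstb, the cystatin Cst3 and the serpin Serpinb1a. Of these, 9 were among the 16047 genes of the table, and Stfa3 was not. Slpi, Cstb, Cst3 and Wfdc21 were abundant, with group means between 449 and 1458 RPKM (read number scaled to the length of the transcript and to the mapped reads of the library). Wfdc17 and Wfdc21 lay higher in all 3 MC-21 libraries than in all 4 PBS libraries, by 3.47-fold and 2.07-fold in the means, and the other members differed by less than their spread or by a small amount. No member had an adjusted p under 0.05 in the test across all genes.

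The RNA came from liver neutrophils of C57BL/6 mice, all of which had received acetaminophen 24 h earlier to injure the liver (acetaminophen-induced liver injury, AILI). PBS mice (n = 4, replicates 5 to 8) were injected with PBS and kept their monocytes, and MC-21 mice (n = 3, replicates 2 to 4) received 400 µL of medium with 29 µg/mL of MC-21, an antibody to the chemokine receptor CCR2, and lacked infiltrating Ly6Chi monocytes. Injections were given from 12 h before acetaminophen and every 24 h. The study used male mice that were wild type or carried a GFP reporter in 1 copy of Cx3cr1, and the gate for these libraries was CD11b+ Ly6Clo CX3CR1-GFP- Ly6G+, with 50000 cells sorted per liver. The MC-21 mice received conditioned medium and the PBS mice did not, so the antibody, its medium and the loss of monocytes cannot be told apart. The comparison asks how neutrophils of the injured liver differ when Ly6Chi monocytes are missing.

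Neutrophils store serine proteases such as elastase, cathepsin G and proteinase 3 in their granules, and lysosomal cysteine cathepsins besides. SERPINB1 blocks these serine proteases in the cytosol. SLPI blocks elastase and cathepsin G, outside the cell and in granules. Stefins are cytosolic inhibitors of cysteine cathepsins, and cystatin C, the product of Cst3, is secreted and inhibits the same family.

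The 3′ RNA-seq libraries differed in depth. In a transcript of 1 kb, 1 RPKM stood for 2.77, 3.33, 2.66 and 3.96 reads in PBS replicates 5 to 8 and for 3.57, 1.59 and 2.78 reads in MC-21 replicates 2 to 4. The shallowest library, MC-21 replicate 3, still held about 1809 reads of Slpi, while Serpinb1a and the stefin A copies rested on few reads in every library. S100a9, the most abundant of 9 markers of mature neutrophils, stood at 12275 to 20590 RPKM in PBS and 18142 to 25041 RPKM in MC-21 neutrophils, and all 9 markers were above 0 in every library. Markers of other cells were present too and are given beside the results they move with.

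The coding sequences of the WAP genes are shown first because the largest differences among the members lay there. The WAP fold is a small domain held together by disulfide bonds between cysteines. Sequences are spliced coding sequences of the GENCODE annotation of mm9, from start codon to stop codon, and capitals mark the in-frame cysteine codons. Wfdc18, a neighbouring gene that is not among the 10, is shown for comparison.
Wfdc17: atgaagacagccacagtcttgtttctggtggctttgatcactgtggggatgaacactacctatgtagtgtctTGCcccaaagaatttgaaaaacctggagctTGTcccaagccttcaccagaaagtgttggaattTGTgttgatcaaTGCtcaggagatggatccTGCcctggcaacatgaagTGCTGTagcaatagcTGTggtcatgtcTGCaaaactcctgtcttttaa
Wfdc21: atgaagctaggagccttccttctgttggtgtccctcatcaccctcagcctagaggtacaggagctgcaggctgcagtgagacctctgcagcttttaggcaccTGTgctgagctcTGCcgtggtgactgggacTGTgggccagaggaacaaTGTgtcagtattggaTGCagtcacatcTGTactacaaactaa
Wfdc18: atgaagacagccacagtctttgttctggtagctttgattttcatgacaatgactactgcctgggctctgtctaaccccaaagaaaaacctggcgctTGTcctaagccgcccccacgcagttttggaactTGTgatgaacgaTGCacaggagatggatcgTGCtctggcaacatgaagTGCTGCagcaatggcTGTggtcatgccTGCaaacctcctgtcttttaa
Wfdc17 had 9 cysteine codons among 76 amino acid codons, Wfdc18 had 8 among 74, and Wfdc21 had 6 among 63. The genes lie head to tail on the plus strand of chromosome 11, at chr11:83517493-83519770 (Wfdc17), chr11:83522517-83524850 (Wfdc18) and chr11:83560442-83566144 (Wfdc21) in mm9, within 48.7 kb. The annotation names them Gm11428, Expi and 1100001G20Rik, and they were matched by their RefSeq synonyms.

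The stefin A copies are shown because their likeness sets how far their values can be told apart. The sequences are the last 90 coding bases with the stop codon, each inside 1 exon on chromosome 16 of mm9, at chr16:36404113-36404202 (Stfa2, minus strand), chr16:36161869-36161958 (Stfa2l1, plus), chr16:36285292-36285381 (Stfa1, plus) and chr16:36450695-36450784 (Stfa3, minus). Capitals mark the bases that differ from Stfa2.
Stfa2: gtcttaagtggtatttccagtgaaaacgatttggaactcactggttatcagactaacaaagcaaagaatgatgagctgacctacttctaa
Stfa2l1: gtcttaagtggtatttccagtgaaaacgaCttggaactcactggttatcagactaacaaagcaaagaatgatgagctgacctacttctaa
Stfa1: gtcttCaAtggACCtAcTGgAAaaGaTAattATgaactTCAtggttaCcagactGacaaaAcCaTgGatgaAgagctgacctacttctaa
Stfa3: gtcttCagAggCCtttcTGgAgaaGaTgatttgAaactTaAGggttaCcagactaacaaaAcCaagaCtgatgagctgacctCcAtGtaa
In this stretch Stfa2l1 differed from Stfa2 at 1 base, Stfa3 at 20 and Stfa1 at 25. Over the whole coding sequence, 306 of 312 bases (98.1%) were alike between Stfa2 and Stfa2l1, against 82.1% between Stfa2 and Stfa3.

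Across the PBS libraries the members spanned from the most abundant transcripts of the libraries to the edge of detection. By mean RPKM in PBS neutrophils, Slpi ranked 42 among all genes, Cstb 78, Cst3 84, Wfdc21 172, Wfdc17 1389, Stfa2l1 4538, Stfa2 6413, Stfa1 7191 and Serpinb1a 7845. The macrophage marker Apoe ranked 40 and the liver endothelial marker Clec4g ranked 60, so these are ranks within bulk libraries and not within the neutrophil. Slpi was above Cstb, Cst3 and Wfdc21 in every library. Cstb and Cst3, as well as the lower neighbours Stfa2, Stfa1 and Serpinb1a, did not differ in level beyond their spread between libraries. Wfdc21 lay under Cst3 in all 4 PBS libraries and above it in 2 of the 3 MC-21 libraries. RPKM divides by transcript length, although a 3′ library gives reads from the end of a transcript, so that a second scale, RPKM times transcript length in kb, put Cst3 (725) above Cstb (539) and Serpinb1a (4.69) above Stfa2l1 (3.71). Added up, the 9 members gave 3319, 3929, 3959 and 3653 RPKM in PBS replicates 5 to 8 and 4100, 3910 and 3962 RPKM in MC-21 replicates 2 to 4, and the groups overlapped.

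**Figure D1:**
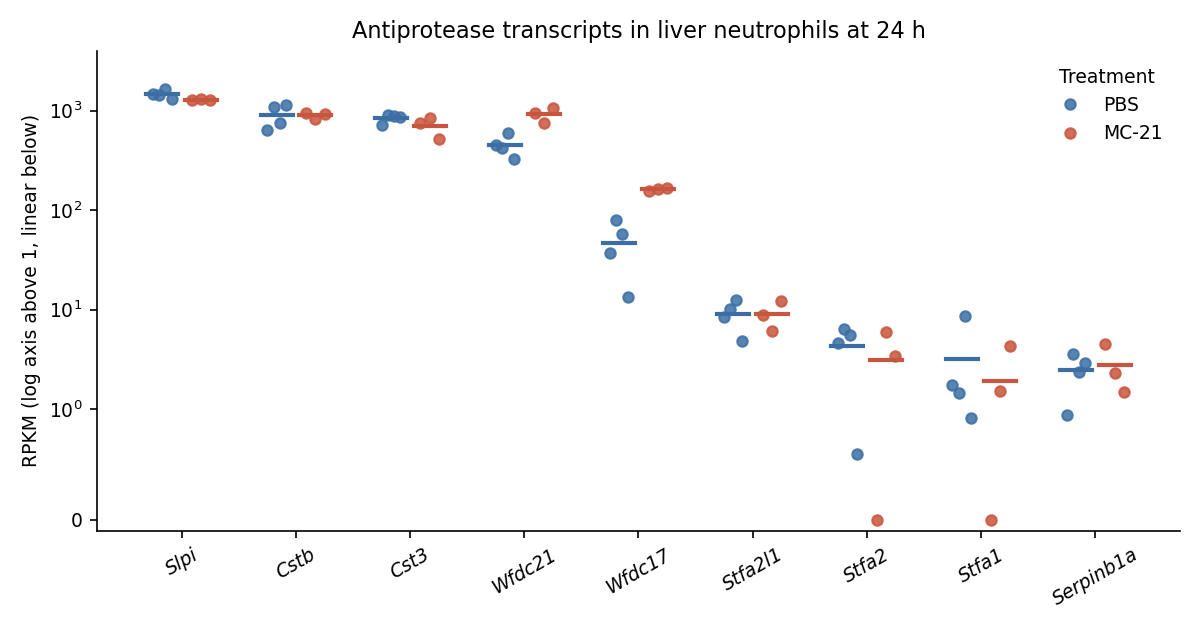
Each point is the RPKM value of 1 library (blue, 4 PBS libraries; red, 3 MC-21 libraries), each bar is a group mean, and the vertical axis is logarithmic above 1 RPKM and linear below. The red points of Wfdc21 and Wfdc17 sit above all blue points, those of Slpi sit just below them, and the other 6 genes overlap, with Stfa1 and Stfa2 listed at 0 in MC-21 replicate 2.

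Limma's test on log2(RPKM + 1) was run on 9594 genes, those whose mean over the 7 libraries reached 1 RPKM, and all 9 members present passed that filter. With Benjamini-Hochberg adjustment over all genes, 60 genes (0.625%) passed an adjusted p of 0.05, of which 41 were lower in MC-21 neutrophils, and 0 of the 9 members did. At an unadjusted p under 0.05, 1415 genes (14.7%) and 2 of 9 members passed. Adding a change of at least 2-fold left 259 genes (2.7%) and the same 2 members, Wfdc17 and Wfdc21. In the higher direction alone, 98 genes (1.02%) passed both cutoffs. The groups did not overlap in 1280 genes (13.3%) and in 3 members: 2 were higher in every MC-21 library, against 3.1% of all genes, and 1 was lower, against 10.2%. The median log2 fold change was 0.02 over the members, with 5 higher and 4 lower, and -0.15 over all genes tested, of which 69.4% were lower. With 9 members these shares are a description. A fold change on the log2(RPKM + 1) scale understates that of genes near 1 RPKM.

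**Figure D2:**
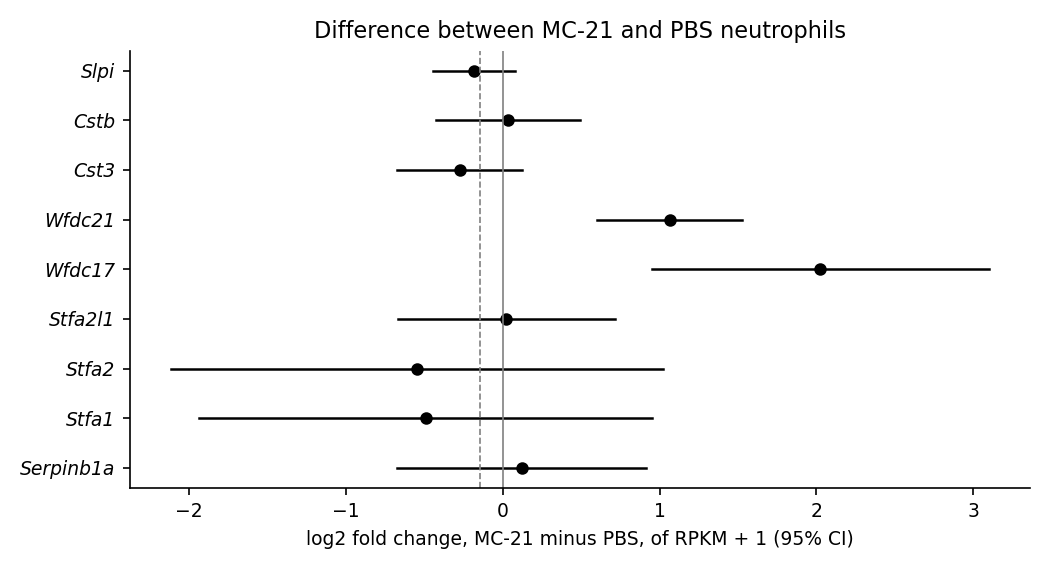
Points are the log2 fold changes of RPKM + 1 from limma, MC-21 minus PBS (4 PBS and 3 MC-21 libraries), with 95% confidence intervals; the solid line is 0 and the dashed line is the median of all 9594 genes, -0.15. The intervals of Wfdc21 (0.60 to 1.53) and Wfdc17 (0.95 to 3.10) lie above 0, and the other 7 include it.

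Wfdc17, a secreted WAP protein known from activated macrophages, had the largest fold change of the members. Its RPKM values were 37.0, 79.4, 56.9 and 13.5 in PBS replicates 5 to 8 and 155.8, 163.4 and 166.4 in MC-21 replicates 2 to 4. The MC-21 libraries lay close together, above the highest PBS library, while the PBS libraries varied widely, with replicate 8 the lowest. The means were 46.7 ± 28.1 RPKM (SD, n = 4) and 162 ± 5.47 RPKM (SD, n = 3). The log2 fold change was 2.03 (SE 0.48), with an unadjusted limma p of 0.00197 and an adjusted p of 0.109. These values correspond to 48, 124, 71 and 25 whole reads in the PBS libraries and 261, 122 and 217 in the MC-21 libraries, at the transcript length that makes all of them whole within 0.1 read. PBS replicate 6 and MC-21 replicate 3 thus held nearly equal numbers of Wfdc17 reads, and differed in RPKM by their depth. Over the 13 alternatives run, the adjusted p of Wfdc17 ranged from 0.0469, without PBS replicate 6, to 0.258, with no filter on low values.

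Wfdc21, a small WAP protein of myeloid cells, stood 9.61 times as high as Wfdc17 in the mean RPKM of PBS neutrophils. Its values were 448, 420, 600 and 328 RPKM in PBS replicates 5 to 8 and 956, 757 and 1070 RPKM in MC-21 replicates 2 to 4. The groups did not overlap, the MC-21 libraries being the higher, and PBS replicate 8 was again the lowest. The means were 449 ± 113 RPKM (SD, n = 4) and 928 ± 158 RPKM (SD, n = 3), a log2 fold change of 1.07 (SE 0.21) with an unadjusted limma p of 5.05e-04 and an adjusted p of 0.0612. Once each library was centred on its median, the adjusted p was 0.0465, and over the other alternatives run it reached 0.206, without MC-21 replicate 4. The medians of log2(RPKM + 1) were 3.13, 3.15, 3.15 and 3.23 in the PBS libraries and 3.07, 3.05 and 2.89 in the MC-21 libraries, so that the MC-21 libraries as a whole sat slightly lower.

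The gene between them, Wfdc18, was low. It was named after its values were seen. Its values were 3.99, 2.21, 6.91 and 6.03 RPKM in the PBS libraries and 7.72, 9.24 and 7.93 RPKM in the MC-21 libraries, or 4 to 13 reads against 8 to 15. The groups did not overlap, and the log2 fold change of Wfdc18 was 0.76 (SE 0.30, adjusted p 0.296, limma). Of the 8 genes in the table within 100 kb of this run, 6 were tested. The chemokine genes Ccl3 and Ccl4 upstream had log2 fold changes of 0.59 (SE 0.23, adjusted p 0.285) and 0.63 (SE 0.29, adjusted p 0.348), with overlapping groups. Heatr6, just downstream of Wfdc21, had -0.11 (SE 0.17, adjusted p 0.795). Neither Wfdc17 nor Wfdc21 shared an exact stretch of 50 bases with the transcript of another annotated protein-coding gene. Other transcripts, the rest of the genome and inexact matches were not searched.

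**Figure D3:**
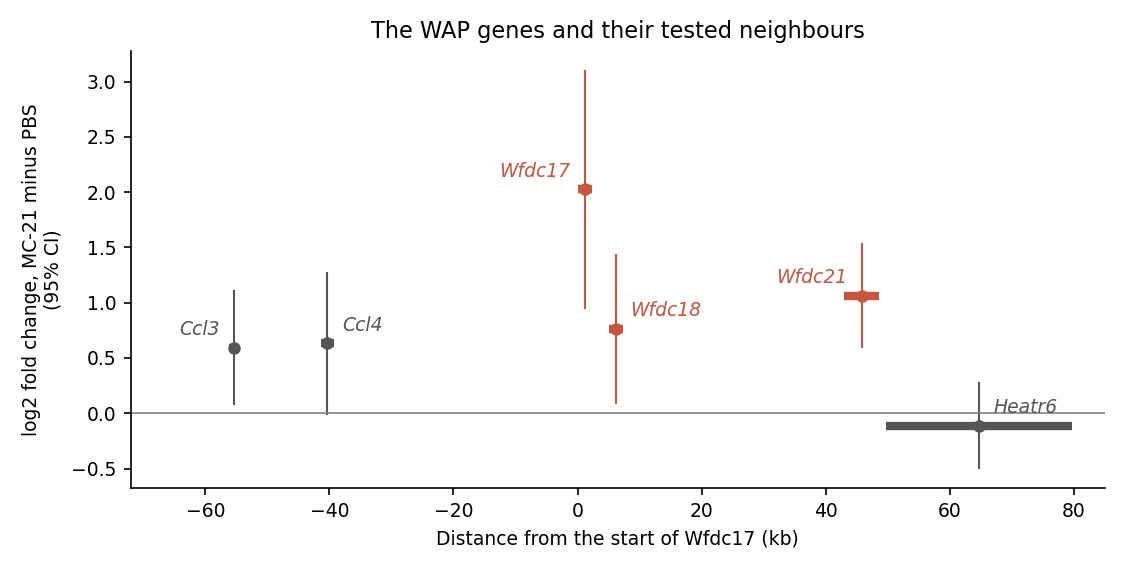
Log2 fold changes (limma, MC-21 minus PBS, 95% confidence intervals) are plotted against the distance from the start of Wfdc17 in kb, with horizontal bars for the extent of each gene, WAP genes in red and other tested genes in grey. The points of Wfdc17 (2.03), Wfdc18 (0.76) and Wfdc21 (1.07) lie above 0, those of Ccl3 and Ccl4 lie at 0.59 and 0.63, and Heatr6 lies at -0.11.

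Slpi, the main secreted inhibitor of neutrophil elastase in this group, was the most abundant member and one of the steadiest. It had 1471, 1425, 1634 and 1302 RPKM in PBS replicates 5 to 8 and 1275, 1297 and 1267 RPKM in MC-21 replicates 2 to 4. All MC-21 libraries were below all PBS libraries, the nearest pair being 1297 and 1302 RPKM. The means were 1458 ± 138 RPKM (SD, n = 4) and 1280 ± 15.8 RPKM (SD, n = 3). The log2 fold change of Slpi was -0.18 (95% CI -0.44 to 0.08) with an adjusted limma p of 0.504, and it was -0.02 once libraries were centred on their medians. The gene lies at chr2:164179806-164214831 on the minus strand.

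Serpinb1a, the cytosolic serpin that blocks elastase, cathepsin G and proteinase 3, was near the limit of detection. Its values were 0.943, 3.60, 2.35 and 2.90 RPKM in the PBS libraries and 4.52, 2.29 and 1.4998 RPKM in the MC-21 libraries, which are 5, 23, 12 and 22 against 31, 7 and 8 reads. The groups overlapped, with the highest value in MC-21 replicate 2 and the lowest in PBS replicate 5. The log2 fold change was 0.12 (SE 0.35, adjusted p 0.902), and it was -0.20 without MC-21 replicate 2. Its transcript shared 3.32% of its 50-base stretches with Serpinb1b and Serpinb1c. The gene lies at chr13:32933961-32943054 on the minus strand.

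Of the serine proteases that SLPI or SERPINB1 blocks, Prtn3 and Ctsg were low as transcripts. Elane, which encodes elastase, was not in the table, so its level was not analysed here. Ctsg, the gene of cathepsin G, was at 0 in every library but PBS replicate 8, where it stood at 0.253 RPKM. Prtn3, the gene of proteinase 3, had 3.73, 2.17, 3.88 and 3.12 RPKM in the PBS libraries and 2.31, 1.30 and 7.04 RPKM in the MC-21 libraries. Its groups overlapped, with the highest and the lowest value both in MC-21 libraries. These values rest on 2 to 19 reads a library. Of 7 serine protease genes present, 5 were tested and 0 were called by limma, either at an adjusted (0.625% of all genes) or at an unadjusted p under 0.05 (14.7%). The most abundant was Plau, the gene of the plasminogen activator urokinase, with means of 5.78 and 5.51 RPKM. Gzma, the gene of granzyme A of cytotoxic lymphocytes, had means of 1.93 and 5.19 RPKM, with a log2 fold change of 0.97 (SE 0.58, adjusted p 0.483, limma) and overlapping groups.

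Cstb, or stefin B, the general cytosolic inhibitor of cysteine cathepsins, ranked after Slpi by mean RPKM in PBS neutrophils, while in MC-21 neutrophils Wfdc21 was also above it. Its values were 636, 1080, 753 and 1129 RPKM in PBS replicates 5 to 8 and 944, 830 and 916 RPKM in MC-21 replicates 2 to 4. All MC-21 libraries lay inside the range of the PBS libraries. The means, 899 ± 242 RPKM (SD, n = 4) and 897 ± 59.7 RPKM (SD, n = 3), gave a log2 fold change of 0.03 (95% CI -0.42 to 0.49, adjusted p 0.955, limma), so that the interval reaches from a 1.34-fold decrease to a 1.41-fold increase. The gene lies at chr10:77888415-77890364 on the plus strand.

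Cst3 stood at a similar level, with 711, 903, 886 and 872 RPKM in the PBS libraries and 755, 846 and 521 RPKM in the MC-21 libraries. The groups overlapped, and MC-21 replicate 4 was the lowest of all. The means were 843 ± 89.1 RPKM (SD, n = 4) and 708 ± 168 RPKM (SD, n = 3), and the log2 fold change was -0.28 (SE 0.18, adjusted p 0.511, limma). It was -0.07 without MC-21 replicate 4. Macrophages also make much cystatin C, and markers of monocytes and macrophages moved between the groups. All 15 such markers present were tested, 14 were lower in MC-21 libraries (69.4% of all genes), and 7 fell with an adjusted p under 0.05, among them Ccr2, Fcgr1 and C1qb (background in that direction 0.427%). Their summed level was 2225, 2199, 1888 and 2226 RPKM in PBS replicates 5 to 8 and 1225, 1535 and 1070 RPKM in MC-21 replicates 2 to 4, Apoe being the most abundant, and Ccr2 and Ms4a7 were at 0 in some libraries. Their part in the values of Cst3 or of any other member was not tested. In such bulk samples fewer cells of a type and less RNA per cell cannot be told apart. The gene lies at chr2:148697458-148701428 on the minus strand.

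The stefin A genes Stfa1, Stfa2 and Stfa2l1 encode inhibitors of cysteine cathepsins that mouse neutrophils make from a cluster of near copies. Together with Stfa3, these 3 genes span 298.6 kb of chromosome 16. Stfa2l1 had the highest RPKM of the 3 in every library, though in MC-21 replicate 3 it and Stfa2 held 4 reads each, with 8.43, 10.2, 12.4 and 4.88 RPKM in the PBS libraries and 8.79, 6.07 and 12.2 RPKM in the MC-21 libraries. The groups overlapped, and the means were 8.97 ± 3.18 RPKM (SD, n = 4) and 9.01 ± 3.05 RPKM (SD, n = 3). Stfa2 had 4.58, 6.39, 5.61 and 0.597 RPKM in the PBS libraries and 0, 5.94 and 3.40 RPKM in the MC-21 libraries. Its groups overlapped too, with PBS replicate 8 and MC-21 replicate 2 low. Stfa1 had 1.73, 1.44, 8.65 and 0.918 RPKM in the PBS libraries and 0, 1.503 and 4.30 RPKM in the MC-21 libraries, PBS replicate 7 standing far above the other PBS libraries. The log2 fold changes were 0.02 (SE 0.31) for Stfa2l1, -0.55 (SE 0.70) for Stfa2 and -0.49 (SE 0.64) for Stfa1, with adjusted limma p values of 0.981, 0.755 and 0.761. With a pseudocount of 0.1 in place of 1, those of Stfa2 and Stfa1 were -1.37 and -1.33, with adjusted p values of 0.677 and 0.649.

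The reads behind these values show that Stfa2l1 and Stfa2 were not counted apart in at least 2 of the 7 libraries. Of the 50-base stretches of its transcript, Stfa2l1 shared 24.9% with Stfa2, and Stfa1 shared 37.7% with BC100530 and Gm1975, while Stfa3 and Cstb shared none. Turned back into reads, Stfa2l1 and Stfa2 gave 9.65 and 5.35 reads in PBS replicate 5, and 13.69 and 6.31 reads in PBS replicate 7. Neither number is whole, but the sums are 15 and 20. Over the 7 libraries the sums of Stfa2l1 and Stfa2 were 15, 23, 20 and 9 reads in PBS and 13, 8 and 18 reads in MC-21 libraries, whole in each within 0.1 read. The split between the 2 genes in PBS replicates 5 and 7 was therefore an assignment of shared reads and not a count of each. Whole numbers in the other libraries do not show that the copies were counted apart there. BC100530 stood at 5.41e-17 RPKM in PBS replicate 5, far below 1 read, while Stfa1 was whole in that library at 2 reads. A value of 0 for a copy may thus also be an assignment.

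Summed over the 3 copies, stefin A stood at 14.7, 18.0, 26.7 and 6.39 RPKM in PBS replicates 5 to 8 and at 8.79, 13.5 and 19.9 RPKM in MC-21 replicates 2 to 4. The groups overlapped, with means of 16.5 ± 8.39 RPKM (SD, n = 4) and 14.1 ± 5.56 RPKM (SD, n = 3). The difference, -2.39 RPKM, was 1.02 without PBS replicate 7 and 0.24 without MC-21 replicate 2. With the other copies of the cluster added, the sums were 32.3 ± 20.4 RPKM in PBS and 43.8 ± 10.9 RPKM in MC-21 neutrophils, and the groups again overlapped. Most of what was added came from Gm5483, a further stefin A gene, with 8.76, 14.5, 30.0 and 3.06 RPKM in PBS and 21.7, 36.5 and 26.1 RPKM in MC-21 libraries. The log2 fold change of Gm5483 was 1.28 (SE 0.56, unadjusted p 0.0485, adjusted p 0.336, limma), and PBS replicate 7 overlapped the MC-21 libraries.

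**Figure D4:**
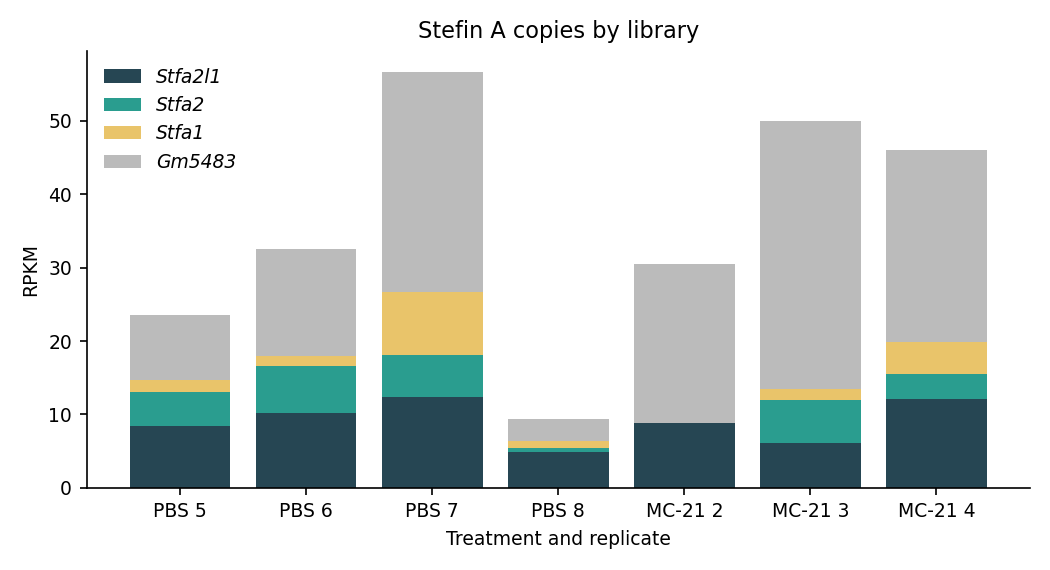
Stacked bars give RPKM of Stfa2l1, Stfa2, Stfa1 and Gm5483 in each library (PBS replicates 5 to 8, MC-21 replicates 2 to 4). PBS replicate 8 has the lowest stack and PBS replicate 7 the highest, Stfa1 and Stfa2 are at 0 in MC-21 replicate 2, and Gm5483 makes up more than the other copies together in all 3 MC-21 libraries and in PBS replicate 7.

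Of the cysteine proteases that stefins and cystatins inhibit, 11 genes were present and 9 were tested, and 0 had an adjusted p under 0.05 by limma. A lower value in MC-21 neutrophils was found in 7 of 9, against 69.4% of all genes, and an unadjusted p under 0.05 in 6 of 9 (4 lower and 2 higher), against 14.7%. The groups did not overlap in 4, all lower (background 10.2%), and the median log2 fold change was -0.43 against -0.15 over all genes. Ctsb, the gene of cathepsin B and the most abundant, had 419, 459, 499 and 473 RPKM in the PBS libraries and 353, 364 and 314 RPKM in the MC-21 libraries, a log2 fold change of -0.43 (SE 0.12, adjusted p 0.175). Its groups did not overlap, and the lowest PBS library was replicate 5. Lgmn, which encodes legumain, an asparaginyl endopeptidase of lysosomes, had -0.23 (SE 0.16, adjusted p 0.530). Ctsl, the gene of cathepsin L, went the other way at 0.47 (SE 0.19, adjusted p 0.296), with 219, 203, 150 and 170 RPKM against 250, 316 and 209 RPKM and overlapping groups. Ctss, Ctsh and Ctsc were named after their values were seen. They encode cathepsin S, cathepsin H and cathepsin C, the last being the enzyme that activates the granule serine proteases, and their log2 fold changes were -1.01, -0.66 and -1.27 with adjusted p values of 0.129, 0.169 and 0.0560. Macrophages express these cathepsins as well, and the part of the lower macrophage markers in these values was not tested.

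Among the other stefins and cystatins, 10 genes were present, 5 were tested, 0 were called by limma and 2 had an unadjusted p under 0.05 (14.7% of all genes), Gm5483 and Cst7. Cst7 encodes cystatin F, an inhibitor of cathepsin C and its relatives that is kept in granules and lysosomes. Its values were 1.10, 3.96, 0.763 and 1.54 RPKM in the PBS libraries and 9.65, 9.56 and 3.28 RPKM in the MC-21 libraries, or 3, 13, 2 and 6 against 34, 15 and 9 reads. Only PBS replicate 6 overlapped the MC-21 libraries, and the log2 fold change was 1.59 (SE 0.42, adjusted p 0.151, limma). Kng1, a liver gene whose product kininogen holds cystatin domains, had 7.99 and 7.40 RPKM in the means. Of 6 other WAP and Kunitz inhibitor genes, 5 were tested and only Wfdc18 had an unadjusted p under 0.05, a share near the 14.7% of all genes. The most abundant were Tfpi, the inhibitor of the tissue factor pathway, and Spint2, a Kunitz inhibitor of membrane serine proteases, with log2 fold changes of -0.03 and 0.07, and then Tfpi2 at 0.03 with values from 1.61 to 23.3 RPKM.

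The serpins other than Serpinb1a held the largest group of inhibitors. Of 28 present, 20 were tested, 17 were lower (69.4% of all genes), 0 were called by limma and 5 had an unadjusted p under 0.05 (14.7% of all genes). Serpina3g, an intracellular inhibitor of cysteine cathepsins despite its serpin fold, had the highest mean over the 7 libraries (in PBS libraries Serpina1e was higher, at 118.0 against 105.2 RPKM), with 59.6, 152.5, 103.8 and 104.9 RPKM in the PBS libraries and 222.5, 371 and 238 RPKM in the MC-21 libraries. The MC-21 libraries all lay higher than the PBS libraries, and the log2 fold change was 1.43 (SE 0.30, adjusted p 0.0739). The family members Serpina3n and Serpina3f, named after their values were seen, had 1.35 (SE 0.27, adjusted p 0.0697) and 0.98 (SE 0.29, adjusted p 0.185), likewise with no overlap. These 3 of 20 serpins lay above PBS in every MC-21 library, against 3.1% of all genes, and 2 of 20 lay below, against 10.2%. The latter were Serpinh1, a chaperone of collagen without inhibitor activity, at -0.63 (SE 0.22, adjusted p 0.245), and Serpinb6b at -0.77 (SE 0.31, adjusted p 0.306), also named after their values were seen. Serpina3k of the same family, a hepatocyte gene named for its family, had -0.20 (adjusted p 0.804). The Serpina3 genes are close copies, and whether their reads were divided was not examined. Serpina1e, an antitrypsin made by hepatocytes, ranged from 61.6 to 220 RPKM in PBS and from 85.3 to 99.3 RPKM in MC-21 libraries. Serpinb6a, a cytosolic serpin, had -0.40 (SE 0.19, adjusted p 0.372).

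The remaining inhibitors comprised 12 genes present and 8 tested, of which 0 were called by limma (0.625% of all genes) and 1, Pebp1, had an unadjusted p under 0.05 (14.7%). Pebp1, which encodes a kinase inhibitor protein with some activity on serine proteases, had -0.40 (SE 0.14, adjusted p 0.244) with MC-21 below PBS in all libraries. Ambp, the gene of the plasma inhibitor bikunin, and Cast, the gene of the calpain inhibitor calpastatin, had -0.35 and -0.05. Over all these lists, 74 of 102 genes were present, 52 were tested and 0 were called, against 0.625% of all genes. An unadjusted p under 0.05 was found in 15, of which 8 were higher (background 3.59%) and 7 lower (background 11.2%).

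**Figure D5:**
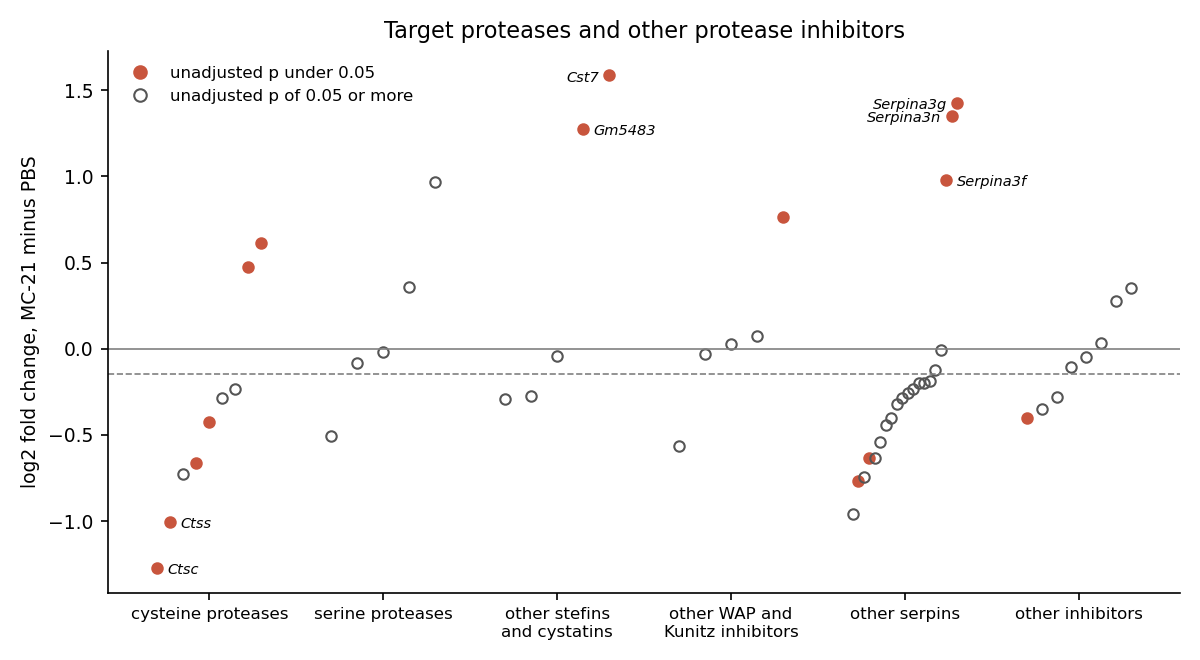
Each point is the log2 fold change (limma, MC-21 minus PBS, 4 against 3 libraries) of 1 tested gene in 6 lists of target proteases and other inhibitors, in ascending order within a list; red points have an unadjusted p under 0.05, the solid line is 0 and the dashed line is the median of all genes tested, -0.15. Red points of the cysteine proteases lie mostly below 0, and those of Cst7, Gm5483 and 3 Serpina3 genes lie above 0.9.

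Markers of other cells were read in the same libraries. Hepatocyte markers, led by Apoa1, summed to 324 to 748 RPKM in PBS and 341 to 542 RPKM in MC-21 libraries, liver endothelial markers, led by Clec4g, to 1052 to 2365 and 1199 to 2141 RPKM, and Kupffer cell markers, led by Marco, to 56.3 to 84.4 and 34.3 to 64.4 RPKM, with Vsig4 at 0 in some libraries. None of the 10, 7 and 3 markers tested in these lists had an adjusted p under 0.05 by limma, and 0, 0 and 2 had an unadjusted p under 0.05 (14.7% of all genes). The latter were the Kupffer markers Cd5l (-0.67) and Marco (-0.51), both lower in MC-21 libraries, as were 11.2% of all genes at that cutoff. Lymphocyte markers, led by Cd79b, summed to 14.8 to 31.9 RPKM in PBS and 7.25 to 10.3 RPKM in MC-21 libraries, with Cd3g, Cd79a, Ms4a1, Ncr1 and Klrb1c at 0 in some. Of the 4 tested, 0 were called by limma and 2, both lower, had an unadjusted p under 0.05. For the markers of eosinophils and basophils the sums were 12.1 to 21.6 and 10.5 to 19.5 RPKM, Siglecf being the most abundant, Ccr3, Cpa3, Mcpt8 and Fcer1a were at 0 in some libraries, and Epx and Prg2 were not in the table.

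Genes of neutrophil maturity were read beside the WAP members. The 9 markers of mature neutrophils summed to 30830, 18213, 26190 and 20560 RPKM in PBS replicates 5 to 8 and to 27962, 35747 and 41766 RPKM in MC-21 replicates 2 to 4, with overlapping groups and a median log2 fold change of 0.46. Of the 9, 0 were called by limma (0.625% of all genes) and 4 had an unadjusted p under 0.05 (14.7% of all genes). These were S100a8, S100a9, Retnlg and Il1r2, all higher in MC-21 libraries, as were 3.59% of all genes at that cutoff. Il1r2 did not overlap, with 224 to 414 RPKM in PBS and 520 to 813 RPKM in MC-21 libraries. Of a list of granule and other genes typical of neutrophils still in the bone marrow, 8 were tested. Of these, 4 were higher and 4 lower, against 69.4% of all genes lower. Chil3, a chitinase-like secreted protein, rose in MC-21 neutrophils with a log2 fold change of 2.47 (adjusted p 0.0172, background in that direction 0.198%), while Lcn2, the most abundant of them, had 0.45 (adjusted p 0.553), and Fcnb was not in the table. Orm1 and Mmp8 were also higher, at 0.85 and 0.79, with adjusted limma p values of 0.495 and 0.651 and overlapping groups. Camp, the gene of cathelicidin, had -1.89 (SE 0.72, unadjusted p 0.0263, adjusted p 0.281), and Ltf, Ngp and Cebpe had -0.69, -0.12 and -0.11. Mpo, the myeloperoxidase gene, was at 0 in some libraries. The part of these genes' differences, or of neutrophil maturity, in the values of Wfdc17 and Wfdc21 was not tested.

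Likeness between the patterns of members over the 7 libraries was measured as the root mean square difference of log2(RPKM + 1), each gene centred on its own mean, so that 0 would be the same pattern and a gene of wider range lies farther from all others. The closest pairs of members were Cst3 and Slpi at 0.24, Cst3 and Cstb at 0.34, Cstb and Serpinb1a at 0.34 and Cstb and Slpi at 0.35. Wfdc17 and Wfdc21, which were 0.75 apart, shared their lowest value in PBS replicate 8. For the members whose highest library was at least 4 times their lowest, the nearest genes were sought among the 4135 whose mean reached 10 RPKM. For Wfdc17 these were Tarm1 (0.48), Olr1 (0.56) and BC049730 (0.56), of which Tarm1 encodes a myeloid receptor and Olr1 the receptor for oxidized LDL. Tarm1 had 13.98, 42.7, 18.9 and 12.7 RPKM in PBS replicates 5 to 8 and 99.2, 63.0 and 69.5 RPKM in MC-21 replicates 2 to 4, with PBS replicate 6 the highest PBS library, as for Wfdc17. Serpinb1a was nearest to Plek (0.19), Clec4n (0.21) and Dtnbp1 (0.21). Stfa1 was nearest to Apoc2 (0.58), Hmox1 (0.64) and Ddit4 (0.66), all with their highest value in PBS replicate 7, and Stfa2 to Hbb-b1 (0.71), Scnn1a (0.73) and Ndufa10 (0.76). The libraries share their depth and their cell content between genes, so these distances are descriptions. The nearest genes were picked by likeness over these same libraries, so a shared highest library follows from that choice.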

How the data were processed

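Neutrophil 3′ RNA-seq libraries of 4 PBS and 3 MC-21 mice were analysed. The authors sequenced them on an Illumina NextSeq, mapped reads to mm9 with HISAT 0.1.5, used SAMtools, and deposited RPKM values per gene and library from Partek Genomics Suite 6.6. The transcript annotation, what was done with reads matching several places, and any use of strand or molecular barcodes are not given in the sources used here. The labels name separate livers. Columns were matched to samples by their names.

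Differences were computed on log2(RPKM + 1), with a mean of at least 1 RPKM, by limma 3.58.1 (lmFit, eBayes with trend) in R 4.3.3, and p values were adjusted by the Benjamini-Hochberg method over the 9594 genes. In simulated data for this comparison, 185 of 200 genes (92.5%) changed by 2 on the log2 scale were recovered, with 11 false calls. The changed genes were drawn only from those of higher mean expression, with normally distributed noise. The share recovered does not apply to Serpinb1a, Stfa1 and Stfa2, which were lower, or to smaller changes. Limma replaced the unpaired t-test of the study, whose cutoffs (p under 0.05 and 2-fold) were applied to the same fit.

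Depth was read from the smallest steps of low RPKM values: the estimates of 344 of 681 genes (50.5%) lay within 1% of their mode, and 77.5% of 3318 low values were within 0.1 of a whole read. Reads of single genes used the transcript length that made most values whole, apart from those of Slpi, which used the annotated length of 876 bases. Intervals are limma's 95% confidence intervals of the log2 fold change, computed from the spread between libraries, and are not ranges of library values. Coordinates and coding sequences came from the GENCODE annotation of mm9. Shared sequence was counted in exact stretches of 50 bases of each longest transcript, against annotated protein-coding transcripts only. Symbols not in the annotation were matched by RefSeq synonyms, and 15360 genes had coordinates.

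The members, lists and markers were chosen with earlier results of these data known. The genes named are all members, in each list of the pathway those with an adjusted p under 0.05 or, if fewer than 3, also the 3 with the highest mean RPKM, in marker lists the most abundant gene and those at 0, and the 3 genes nearest in pattern to a member whose highest library was at least 4 times its lowest. All other genes in the text with values, among them Ctsg, Serpina3k, Camp and single markers, were named after their values were seen. Ctsg and Elane were named as classical targets, and Elane had no values. Alternatives were a pseudocount of 0.1, no filter, a filter at 5 RPKM, quantile normalization, median centring, limma without a trend, other stefin copies in the sum, and leaving out each library. Tables and plots used Python 3.11.15, numpy 2.4.6, pandas 2.3.3 and matplotlib 3.10.9.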

Additional observations from a re-analysis of the deposited data

Results flagged for a closer look

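Among the 9 members, 2 had a PBS library that stood apart from the other 3 by Dixon's ratio. Stfa1 was at 8.65 RPKM in PBS replicate 7 (ratio 0.895), against 0.918 to 1.73 RPKM in the other PBS libraries, and its read numbers were not whole in that library (9.62) or in PBS replicate 8 (1.52). Cst3 was at 711 RPKM in PBS replicate 5 (ratio 0.839), the lowest of the PBS group, against 872 to 903 RPKM in the others. Chance marks about 1 in 20 groups in this way, and the MC-21 group of 3 was not examined. The causes were not tested.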

How the results depend on the processing

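No paired analysis was possible because the groups share no replicate numbers. Of 114 values of members under the alternatives, 101 kept their direction and their side of the threshold, 11 reversed and 2 newly passed. Wfdc17 stayed between 1.54 and 2.36 (log2) and Wfdc21 between 0.93 and 1.23, with an unadjusted limma p under 0.05 in all 13 alternatives and adjusted p values of 0.0469 to 0.258 and 0.0465 to 0.206. The values of Cstb (-0.12 to 0.16), Serpinb1a (-0.20 to 0.38), Stfa1 (-1.07 to 0.13), Stfa2 (-1.12 to 0.28) and Stfa2l1 (-0.21 to 0.25) changed sign when single libraries were left out, and that of Cstb was -0.060 under quantile normalization. A pseudocount of 0.1 gave -1.37 for Stfa2 and -1.33 for Stfa1. The 60 genes called became 6 without a filter on low values and 9 (without PBS replicate 8) to 102 (without PBS replicate 6) when single libraries were left out. Members called numbered 1 with libraries centred on their medians (Wfdc21) and 0 to 1 with a library left out (Wfdc17 without PBS replicate 6). Members past the unadjusted cutoffs numbered 1 under quantile normalization and 1 to 2 with a library left out, Wfdc17 alone without PBS replicate 8 or MC-21 replicate 4. In the lists of proteases and other inhibitors, 2 genes were called with centred libraries (Serpina3g and Serpina3n) and 0 to 1 with a library left out (Serpina3g without PBS replicate 6). The difference in summed stefin A, -2.39 RPKM, was 11.5 RPKM with the other copies added and -5.75 to 1.02 with a library left out. The causes were not tested. With a mean of at least 5 RPKM, Serpinb1a, Stfa1 and Stfa2 gave no value. The number of libraries and the few reads of these 3 genes limit their precision.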
